A study of Homo sapiens with 14 samples.

Results

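RNA polymerase II (RNAPII) on genes was compared between 22 h and 19 h in BJ hTERT cells given DMSO, the vehicle of an ATR inhibitor. BJ hTERT is an established line, skin fibroblasts that telomerase keeps dividing. The comparison rests on 4 of the 14 chromatin immunoprecipitation sequencing (ChIP-seq) libraries of the series: total RNAPII at 22 h in DMSO, total RNAPII at 19 h in DMSO, RNAPII phosphorylated on serine 2 of its C-terminal repeats (Ser2) at 22 h in DMSO, and Ser2 at 19 h in DMSO. The antibody labels name the Rpb1 N-terminal domain and Ser2-RPB1, while the protocol text names antibodies to phospho-H2A.X and H3; the antibody labels were followed. All 4 come from the same line and the same vehicle, with 1 library per antibody and hour. No value therefore has a replicate error, and no test of the hours against variation between cultures could be made. The series title places the work in S phase, and what the hours count from is not given in the sources used here. The genes were those outside the mitochondrial genome with a mean of at least 1 RPM (reads over the gene scaled to the library total) over the pair compared. This gave 12023 genes with total RNAPII and 12005 with Ser2, of 12411 nuclear genes in the deposited table.

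RNAPII is recruited to promoters with an unphosphorylated C-terminal tail, and serine 2 of that tail is phosphorylated by CDK9 and CDK12 as the enzyme elongates along the gene body. Total RNAPII therefore reads all polymerase on a gene, while Ser2 weights the elongating form and the end of the gene. In a cycling fibroblast, E2F factors drive genes for DNA replication from late G1 into S phase, and the MMB complex (MuvB with B-MYB) together with FOXM1 drives genes for mitosis from late S phase into G2 and M, through CHR elements and CCAAT boxes in their promoters.

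The libraries held 18787183 reads for total RNAPII at 22 h and 35871568 at 19 h, and 30838523 reads for Ser2 at 22 h and 30193468 at 19 h. Of these reads, 42.8% lay in the listed nuclear genes for total RNAPII at 22 h against 72.0% at 19 h, and 39.97% for Ser2 at 22 h against 63.5% at 19 h. The 14 h and 16 h libraries, DMSO or ATRi, held 35.8% to 52.0% in genes. Both 19 h DMSO libraries thus stood apart from the earlier libraries and from 22 h DMSO, as did the 19 h ATRi libraries with 70.8% and 65.6%. The 22 h ATRi libraries held 57.4% with total RNAPII and 44.3% with Ser2. The median gene had 0.602 RPM per kb at 22 h and 1.15 at 19 h for total RNAPII, and 0.544 at 22 h and 0.922 at 19 h for Ser2. As a measure of reads outside transcribed regions, 100 autosomal genes of at least 100 kb with the lowest density in the 19 h ATRi libraries were taken. These silent genes, whose choice by a 19 h treatment favours low values at that hour, had a median of 0.258 RPM per kb at 22 h and 0.0895 at 19 h for total RNAPII, and 0.279 at 22 h and 0.148 at 19 h for Ser2. The 5th percentile of density over all genes, which involves no such choice, differed less, at 0.277 RPM per kb at 22 h and 0.224 at 19 h for total RNAPII, and 0.284 at 22 h and 0.244 at 19 h for Ser2. Less polymerase on genes at 22 h and a less efficient precipitation at 22 h cannot be told apart in these libraries. The fibroblast identity matched the markers: 13 of 15 fibroblast markers were in the table, and FN1 (fibronectin) had 290 RPM at 22 h and 886 at 19 h with total RNAPII, and 280 at 22 h and 785 at 19 h with Ser2. Of the markers of other cell types, 3 of 11 keratinocyte and epithelial genes, 2 of 12 endothelial and blood genes and 1 of 7 melanocyte genes were listed at all.

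Nearly all genes had a lower deposited value at 22 h. In total RNAPII 10861 of 12023 genes (90.3%) were lower, the median gene at 0.533 times its 19 h value (log2 -0.91), and in Ser2 10841 of 12005 (90.3%), the median gene at 0.601 times (log2 -0.73). A higher value was seen in 9.66% and 9.7% of genes. All ratios below are therefore log2((RPM at 22 h + 0.5) / (RPM at 19 h + 0.5)) minus the median of all genes, called relative to the median gene. A gene was counted as higher or lower when it lay 1.5-fold or more from the median gene. With total RNAPII 2103 genes (17.5%) were higher and 644 (5.36%) lower, and with Ser2 1653 (13.8%) were higher and 509 (4.24%) lower. Both antibodies placed 1476 genes (12.3% of 11986) higher and 197 (1.64%) lower, and 0 genes were called in opposite directions. Across genes, which are not replicates, the ratios of the antibodies had a Pearson correlation of 0.90, with the same sign in 84.5%.

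The ratio moved with how densely a gene was covered. In the 1203 genes with the lowest RPM per kb, the median ratio was 1.24 with total RNAPII, from 0.289 RPM per kb at 22 h and 0.229 at 19 h. In the 1203 densest it was -0.42, from 2.81 RPM per kb at 22 h and 7.45 at 19 h. Ser2 gave 0.97 in its 1201 thinnest genes and -0.40 in its 1201 densest. Over all genes the Spearman correlation of ratio and density was -0.85 with total RNAPII and -0.84 with Ser2, points that share their libraries and the background above. When the density of the silent genes was subtracted from each library, this correlation was 0.02 and 0.15. The choice of those genes favours low values at 19 h, and the origin of the trend was not tested. Given the trend, the lists of genes below are described on 2 scales: relative to the median gene, and relative to genes of like read density. The second is the distance from a smooth curve of the ratio against RPM per kb over all genes. On that second scale 171 genes (1.42%) were 1.5-fold higher and 407 (3.39%) lower with total RNAPII, 90 (0.75%) higher and 380 (3.17%) lower with Ser2, and 36 (0.3%) higher and 279 (2.33%) lower with both. By construction about as many genes lie above the curve as below it: 48.8% above with total RNAPII and 48% with Ser2.

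**Figure D1:**
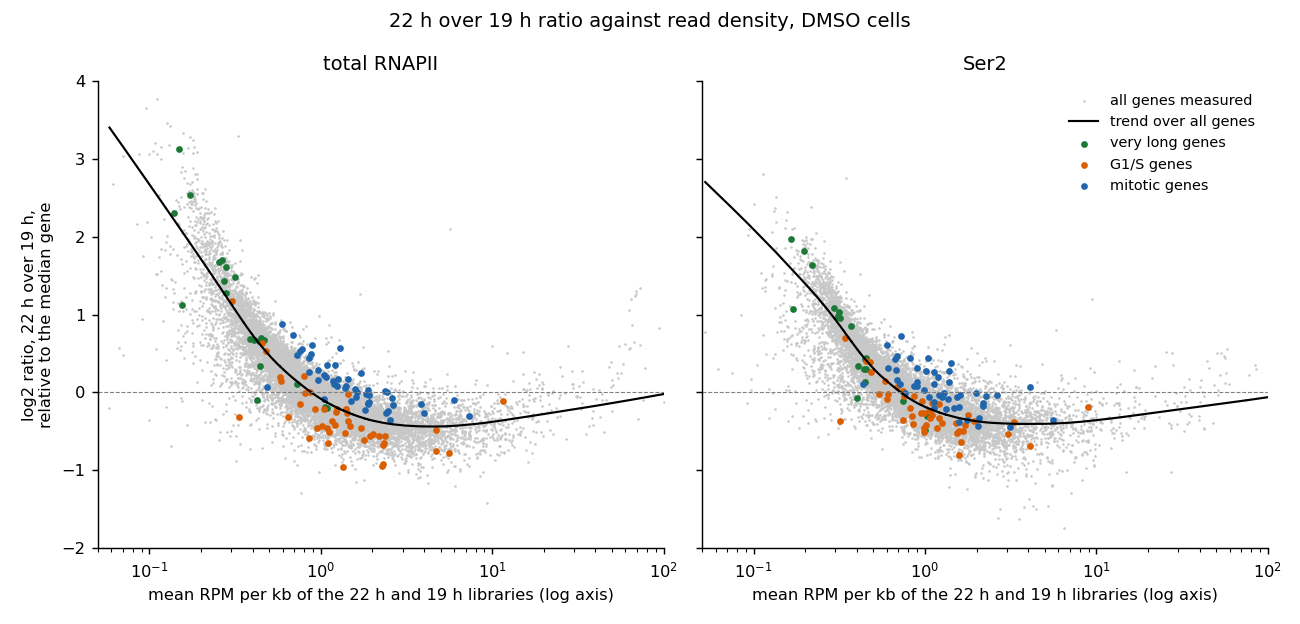
Each point is 1 gene: its mean RPM per kb over the 22 h and 19 h DMSO libraries (log axis) against its log2 ratio of 22 h over 19 h relative to the median gene, for total RNAPII (left) and Ser2 (right), with 3 gene lists in colour and the trend over all genes as a line (a few genes past the ends of the density axis are not drawn). Thinly covered genes lie high (medians of 1.24 and 0.97 at the thin end), mitotic genes lie mostly above the line and G1/S genes mostly below it.

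The genes with the highest ratios were thinly covered, and most were long. SLIT3, a secreted axon guidance ligand, spans 639 kb of hg38 chromosome 5 (168661733 to 169301129). It had 121 RPM at 22 h and 28.0 at 19 h with total RNAPII, and 141 RPM at 22 h and 53.9 at 19 h with Ser2. At 14 h (no treatment named) and 16 h (DMSO) SLIT3 had 121 and 108 RPM with total RNAPII and 146 and 159 RPM with Ser2, so the 19 h libraries were the low ones and 22 h was close to the earlier hours. Relative to the median gene SLIT3 lay at 3.00 with total RNAPII and 2.12 with Ser2, and relative to genes of like density at 0.54 and 0.44. SLC37A1, a sugar-phosphate exchanger of the endoplasmic reticulum, had 14.6 RPM at 22 h and 1.76 at 19 h with total RNAPII (63 reads at 19 h), and 15.9 RPM at 22 h and 3.41 at 19 h with Ser2. The ratios of SLC37A1 were 3.65 and 2.80, the highest pair by its smaller value among named genes with a mean of 3 RPM over the 4 libraries, and 0.92 and 0.83 against genes of like density.

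The other 8 genes at the top were TMEM132B, CDH4 (the adhesion molecule R-cadherin), ZDHHC11B, CXXC4 (an inhibitor of Wnt signalling), MGAM (maltase-glucoamylase), LINC02882, TMEM178B and RASGEF1C. CXXC4 had 5.59 RPM at 22 h and 0.335 at 19 h with total RNAPII, the 19 h value from 12 reads, and 5.58 RPM at 22 h and 1.46 at 19 h with Ser2. Density at 22 h was below that of the silent genes in 9 of the 10 with both antibodies, ZDHHC11B being the exception with 0.295 RPM per kb at 22 h and 0.0498 at 19 h with total RNAPII. Those of at least 100 kb were thin enough in the 19 h ATRi libraries to fall among the silent genes themselves. For them the silent genes are therefore not a separate set to compare with. SLIT3 had 0.190 RPM per kb at 22 h and 0.0438 at 19 h with total RNAPII. ZDHHC11B was the member farthest from genes of like density, at 1.37 with total RNAPII and 1.07 with Ser2. Over the whole table, 937 genes (7.82%) had a higher deposited value at 22 h with both antibodies. Their median length was 130 kb, against 28.8 kb in the other 11049 genes. Their median total RNAPII density by hour was 0.306, 0.288, 0.211 and 0.310 RPM per kb at 14, 16, 19 and 22 h. The order of 19 h and 22 h is fixed by how these genes were chosen.

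Very long genes and genes at common fragile sites, which take hours to transcribe and break under replication stress, followed the same pattern. Of 20 measured, 15 were higher than the median gene by 1.5-fold with total RNAPII and 10 with Ser2, with medians of 0.91 and 0.65, beside 17.5% and 13.8% of all genes. PDE4D, a cyclic AMP phosphodiesterase, had 383 RPM at 22 h and 81.9 at 19 h with total RNAPII and 415 RPM at 22 h and 195 at 19 h with Ser2. WWOX, the gene across the fragile site FRA16D, had 226 RPM at 22 h and 85.3 at 19 h with total RNAPII and 258 RPM at 22 h and 109 at 19 h with Ser2. The well-covered members lay on the other side of 0: TCF4, a bHLH transcription factor, had 297 RPM at 22 h and 638 at 19 h with total RNAPII and 266 RPM at 22 h and 618 at 19 h with Ser2, ratios of -0.19 and -0.48. Relative to genes of like density the list had medians of 0.07 and 0.02, with 12 and 10 of 20 above.

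EGR1, the zinc finger transcription factor of the immediate early response, had the lowest pair of ratios. This ranking used the ratio smaller in size, among named genes with a mean of 3 RPM over the 4 libraries. It lies on hg38 chromosome 5 (138465490 to 138469315, plus strand) and had 11.5 RPM at 22 h and 60.0 at 19 h with total RNAPII, and 7.20 RPM at 22 h and 42.3 at 19 h with Ser2. These were ratios of -1.43 (95% counting interval -1.68 to -1.27) and -1.74 (-2.03 to -1.61), and -1.04 and -1.35 against genes of like density. At 14 h and 16 h EGR1 had 27.2 and 10.95 RPM with total RNAPII and 19.6 and 4.10 RPM with Ser2, so 19 h was the high hour with both antibodies. The median nuclear gene was also highest at 19 h. It had 20.1, 24.7, 35.6 and 19.8 RPM with total RNAPII at 14, 16, 19 and 22 h, and 16.7, 15.6, 29.0 and 17.8 with Ser2. Counting intervals cover the sampling of reads only, from the reads without the added 0.5 RPM, and say nothing of variation between cultures.

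SERPINE2 (protease nexin-1), PTGS1 (cyclooxygenase-1), FGF2 (basic fibroblast growth factor), ITGA2 (the collagen receptor subunit integrin alpha-2), MIR31HG (the long noncoding host of miR-31), ARHGEF40, MOCS2 (molybdopterin synthase, the neighbour of ITGA2 on chromosome 5), TCIM and NUDT6 completed the 10 lowest. NUDT6 shares 27.8% of its span with FGF2, so their reads cannot be separated. SERPINE2 had 39.7 RPM at 22 h and 166 at 19 h with total RNAPII, and 36.2 RPM at 22 h and 141 at 19 h with Ser2. Its ratios were -1.15 and -1.21, and -0.85 and -0.91 against genes of like density. MIR31HG differed more with Ser2: it had 165 RPM at 22 h and 624 at 19 h with total RNAPII, and 120 RPM at 22 h and 618 at 19 h with Ser2, ratios of -1.01 and -1.63. ITGA2 likewise had -0.91 with total RNAPII and -1.49 with Ser2. All 10 lay below genes of like density with both antibodies, between -1.04 and -0.49 with total RNAPII and between -1.35 and -0.56 with Ser2.

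**Figure D2:**
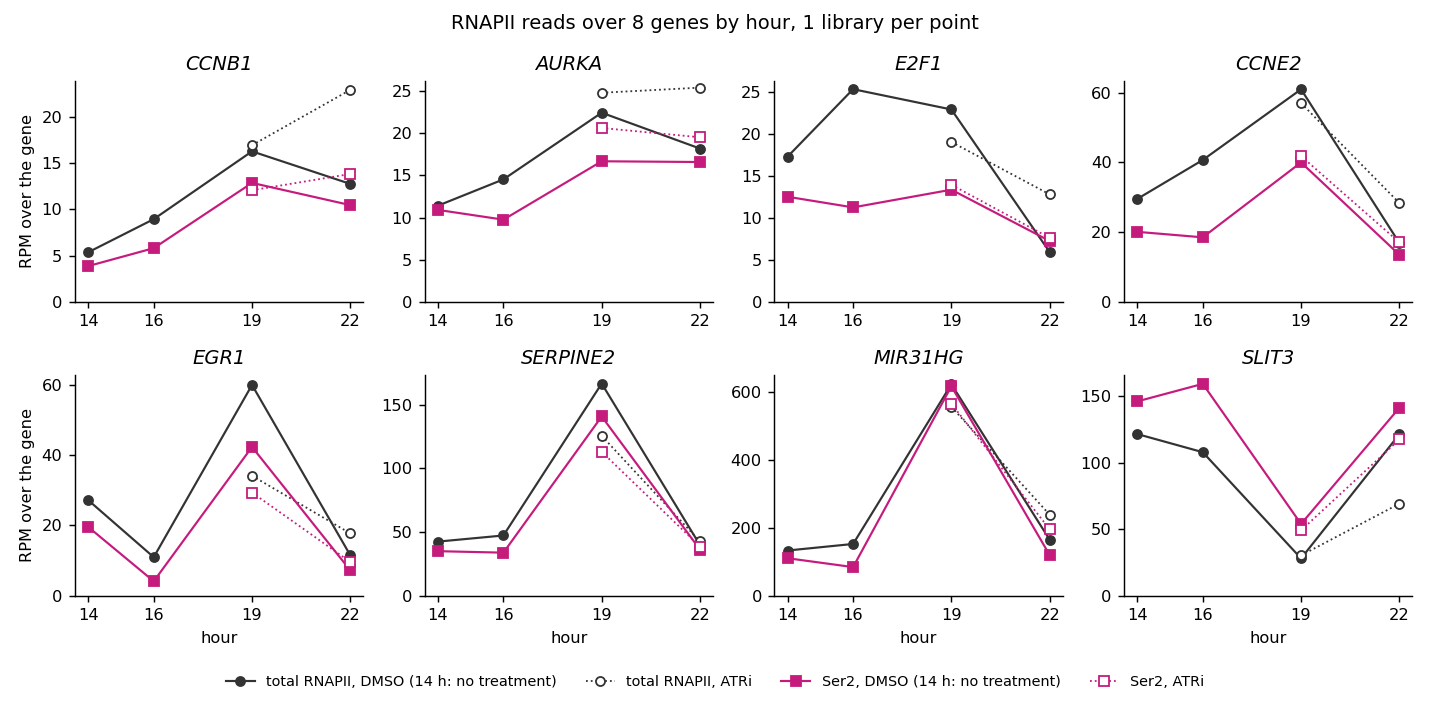
RPM over 8 genes (y axes from 0) against hour, with 1 library per point: filled symbols for DMSO at 16, 19 and 22 h and the library without a treatment name at 14 h, open symbols for ATRi at 19 and 22 h, circles for total RNAPII and squares for Ser2. E2F1 and CCNE2 are lower at 22 h than at 14 h, CCNB1 and AURKA stay above their 14 h and 16 h values, EGR1, SERPINE2 and MIR31HG are high at 19 h, and SLIT3 is low at 19 h. The median nuclear gene (not drawn) is also highest at 19 h among the plotted DMSO and 14 h libraries.

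Genes for the G1/S transition and DNA replication lay below the median gene. Of 44 measured, 37 were below it with each antibody, with medians of -0.42 with total RNAPII and -0.29 with Ser2. With total RNAPII 9 were 1.5-fold lower and 2 higher (beside 5.36% and 17.5% of all genes), and with Ser2 3 were lower and 1 higher (beside 4.24% and 13.8%). Against genes of like density the medians were smaller, -0.18 and -0.10, with 7 and 10 of 44 above (beside 48.8% and 48%). With the silent-gene density subtracted they were -0.27 and -0.15. The ATRi pair of the same hours, from separate libraries, had medians of -0.23 and -0.28 relative to its own median gene.

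E2F1, the activating E2F factor, had 5.91 RPM at 22 h and 22.9 at 19 h with total RNAPII, and 7.23 RPM at 22 h and 13.3 at 19 h with Ser2. The antibodies gave different ratios here, with counting intervals that do not overlap: the ratio was -0.96 (95% counting interval -1.35 to -0.76) with total RNAPII and -0.11 (-0.39 to 0.09) with Ser2. CCNE2 (cyclin E2) was low with both, with 16.9 RPM at 22 h and 61.0 at 19 h for total RNAPII and 13.5 RPM at 22 h and 40.01 at 19 h for Ser2, ratios of -0.92 and -0.80. TYMS (thymidylate synthase), which shares 20.4% of its span with another listed gene, had -0.94 and -0.64. CDC6, the loader of the replicative helicase, had -0.61 and -0.52. MCM7, a subunit of that helicase, had -0.78 and -0.69, whereas its partner MCM6 had 15.9 RPM at 22 h and 27.2 at 19 h with total RNAPII and 14.5 RPM at 22 h and 24.9 at 19 h with Ser2, ratios of 0.15 and -0.02. PCNA, the sliding clamp, lay at -0.67 and -0.50. Members well above the median gene were thinly covered: CDCA7 (1.18 and 0.70) and RFC3 of the clamp loader (0.63 and 0.40) lay at 0.05 and -0.07, and at 0.04 and -0.01, against genes of like density.

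The promoters of 2 of these genes are shown for the E2F site they carry, in capitals. The sequences are from RefSeq, GRCh38.p14, 160 bases read 5' to 3' up to the base before the annotated start.
E2F1, chr20:33686386-33686545, - strand: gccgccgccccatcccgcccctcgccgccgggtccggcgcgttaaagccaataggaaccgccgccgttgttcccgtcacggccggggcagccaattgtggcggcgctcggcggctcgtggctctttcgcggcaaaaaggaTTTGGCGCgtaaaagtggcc
CDC6, chr17:40287719-40287878, + strand: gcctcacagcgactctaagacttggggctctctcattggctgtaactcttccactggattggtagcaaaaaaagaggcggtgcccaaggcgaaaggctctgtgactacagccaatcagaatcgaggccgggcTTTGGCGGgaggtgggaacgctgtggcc
The E2F site was searched as TTTGGCGC, TTTCCCGC, TTTGGCGG or TTTCGCGC on either strand, within 250 bases before and 50 after the start. Among the G1/S genes in the table with a sequence, 26 of 36 (72.2%) held 1 or more of these, against 7.13% of the 8598 genes in the table with a sequence and 4.05% of 27305 genes in all. A match describes the letters only. The ratios of E2F1 were -0.96 with total RNAPII and -0.11 with Ser2, and those of CDC6 were -0.61 and -0.52.

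Mitotic genes stood at the median gene but above genes of like density. Of 48 measured, 30 lay above the median gene with total RNAPII and 24 with Ser2, with medians of 0.06 and 0.01. Set against genes of like density, 47 of 48 lay above with total RNAPII and 43 of 48 with Ser2, medians of 0.32 and 0.23 (beside 48.8% and 48% of all genes). With the silent-gene density subtracted 46 of 48 lay above with each antibody, medians of 0.37 and 0.34. Relative to the median gene 3 members were 1.5-fold higher with total RNAPII and 2 with Ser2 (beside 17.5% and 13.8% of all genes), and 0 were lower with either (beside 5.36% and 4.24% of all genes). Every member had a lower deposited value at 22 h. In the ATRi pair the medians relative to the median gene were 0.29 and 0.15, and 0.36 and 0.28 against genes of like density.

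CCNB1 (cyclin B1), the mitotic partner of CDK1, lies on hg38 chromosome 5 (69167010 to 69178245, plus strand). It had 12.8 RPM at 22 h and 16.3 at 19 h with total RNAPII, and 10.5 RPM at 22 h and 12.9 at 19 h with Ser2. Its ratios were 0.57 (95% counting interval 0.33 to 0.77) and 0.45 (0.22 to 0.65), and 0.78 and 0.65 against genes of like density. From 14 h on, CCNB1 had 5.35, 8.95, 16.3 and 12.8 RPM with total RNAPII at 14, 16, 19 and 22 h, so both later hours exceeded both earlier ones. AURKA (Aurora kinase A) had 18.2 RPM at 22 h and 22.5 at 19 h with total RNAPII, and 16.6 RPM at 22 h and 16.7 at 19 h with Ser2, ratios of 0.61 and 0.73. PLK1 (polo-like kinase 1) had 9.53 RPM at 22 h and 12.9 at 19 h with total RNAPII, and 9.24 RPM at 22 h and 11.4 at 19 h with Ser2, ratios of 0.49 and 0.44. CENPE, the kinetochore kinesin, lay at 0.74 and 0.43, KIF18A, a kinesin that limits chromosome movement, at 0.88 and 0.32, and CCNF (cyclin F) at 0.25 and 0.38.

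The lower end of the mitotic list held CCNA2 (cyclin A2, -0.26 and -0.45), PTTG1 (securin, -0.35 and -0.36), KIF23 (a central spindle kinesin, -0.23 and -0.43) and AURKB (Aurora kinase B, -0.30 and -0.36). All 4 lay near genes of like density, between 0.05 and 0.17 with total RNAPII and between -0.06 and 0.04 with Ser2. CDC20, which activates the ubiquitin ligase of anaphase, had -0.10 and 0.07, and 0.33 and 0.47 against genes of like density. KIF4A was the single member below genes of like density with total RNAPII, at -0.44, and lay at -0.34 with Ser2. It is on chromosome X, as is POLA1, the lowest G1/S gene on that scale (-1.31 and -1.21), and genes of that chromosome are described below. Relative to the median gene POLA1 lay at -0.32 and -0.36.

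For the mitotic genes the CHR element (TTTGAA or TTCGAA) and the CCAAT box (CCAAT) are in capitals in the promoters of 2 members with ratios above the median gene, again from RefSeq, GRCh38.p14, 160 bases up to the base before the start.
PLK1, chr16:23678729-23678888, + strand: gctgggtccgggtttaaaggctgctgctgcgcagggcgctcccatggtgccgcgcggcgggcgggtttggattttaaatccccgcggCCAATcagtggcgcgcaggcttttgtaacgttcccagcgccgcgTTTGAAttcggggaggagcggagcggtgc
KIF18A, chr11:28108157-28108316, - strand: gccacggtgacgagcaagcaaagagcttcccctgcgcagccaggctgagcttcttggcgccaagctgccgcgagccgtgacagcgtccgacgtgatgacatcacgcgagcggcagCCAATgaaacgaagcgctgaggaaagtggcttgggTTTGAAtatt
The CHR lies 29 to 24 bases before the start in PLK1 and 10 to 5 bases before it in KIF18A. Among mitotic genes in the table with a sequence, 33 of 42 (78.6%) held a CHR on either strand within 250 bases before to 50 after the start, against 15.5% of 8598 genes in the table and 19.5% of 27305 in all. A CCAAT box was in 34 of 42 (81.0%), against 43.5% in the table and 39.7% in all. A CHR was in 3 of 36 G1/S genes (8.33%).

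**Figure D3:**
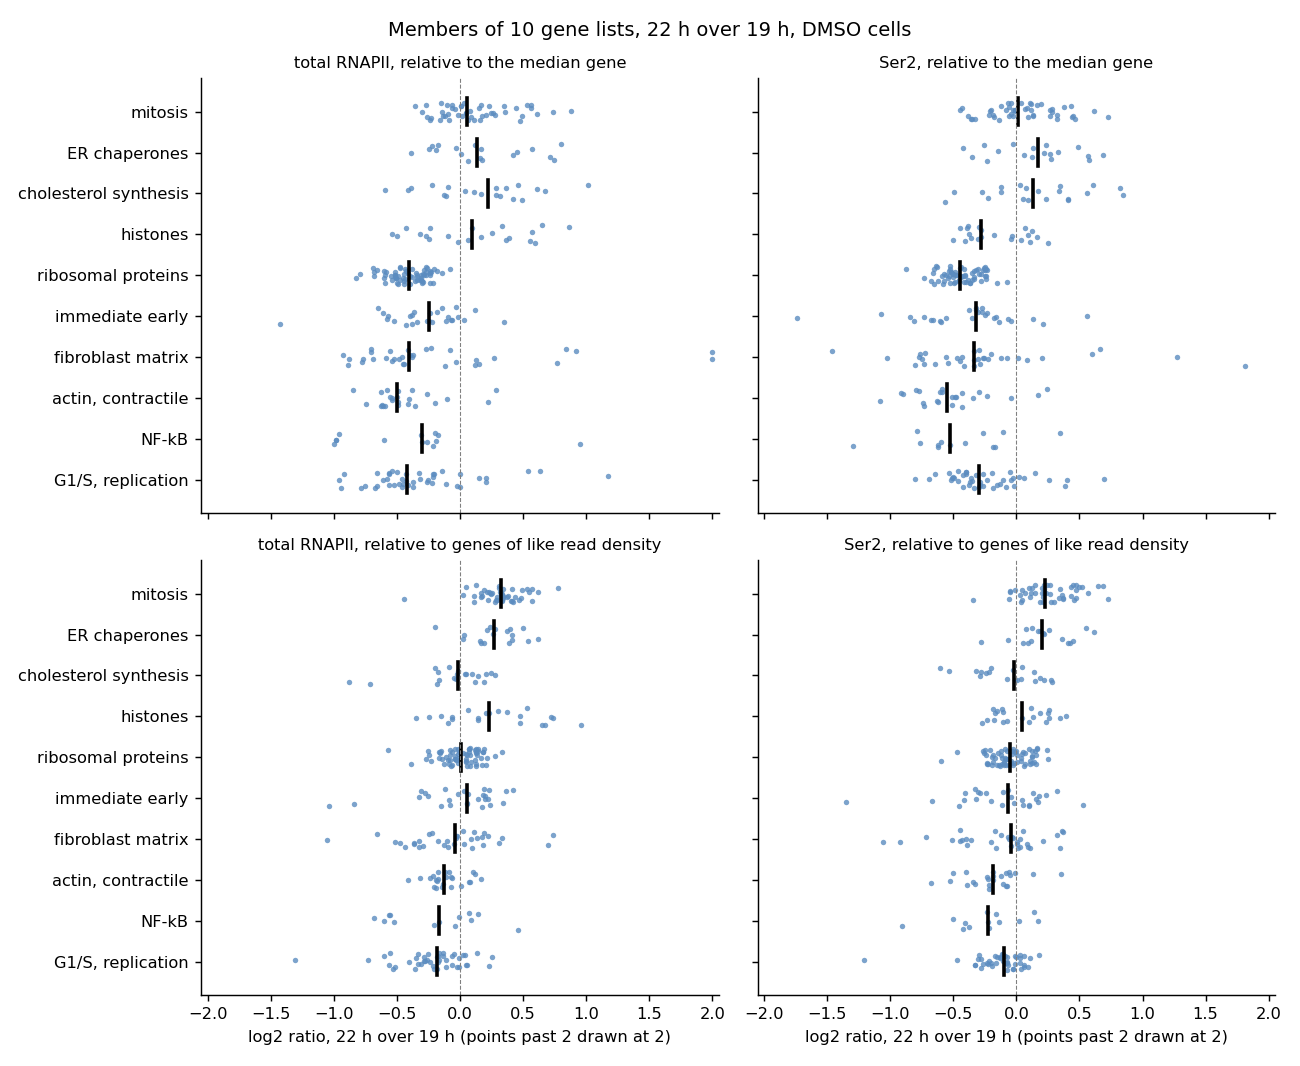
Log2 ratio of 22 h over 19 h for the members of 10 lists, each point 1 gene and the bar the list median, for total RNAPII (left) and Ser2 (right), relative to the median gene (top) and to genes of like read density (bottom), with points past 2 drawn at 2. Mitotic and endoplasmic reticulum genes lie above 0 in the lower panels (medians 0.32 and 0.27 with total RNAPII) and G1/S genes below (-0.18), while ribosomal protein genes, all below 0 in the upper panels, lie around 0 in the lower ones.

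Endoplasmic reticulum chaperones, the targets of the unfolded protein response, also lay above genes of like density with both antibodies. Of 18 measured, 12 lay above the median gene with each antibody (medians 0.14 and 0.17), and 17 and 16 above genes of like density (medians 0.27 and 0.20). CALR (calreticulin) had 19.1 RPM at 22 h and 31.9 at 19 h with total RNAPII, and 15.1 RPM at 22 h and 21.9 at 19 h with Ser2. This placed CALR at 0.18 and 0.21 relative to the median gene and at 0.62 and 0.62 against genes of like density. PDIA6, a disulfide isomerase, had 0.72 and 0.58, and the sensor ATF6 0.80 and 0.49. HSPA5 (the chaperone BiP) had 22.5 RPM at 22 h and 40.8 at 19 h with total RNAPII, and 15.1 RPM at 22 h and 28.3 at 19 h with Ser2, ratios of 0.06 and -0.15, and 0.50 and 0.26 against genes of like density. XBP1, the factor spliced by IRE1, had -0.22 and -0.36, and ERN1, which encodes IRE1, -0.19 and -0.26.

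The HSPA5 promoter is shown for its ER stress response element (ERSE: CCAAT, any 9 bases, then CCACG), with the 2 fixed parts in capitals, from RefSeq, GRCh38.p14.
HSPA5, chr9:125241344-125241503, - strand: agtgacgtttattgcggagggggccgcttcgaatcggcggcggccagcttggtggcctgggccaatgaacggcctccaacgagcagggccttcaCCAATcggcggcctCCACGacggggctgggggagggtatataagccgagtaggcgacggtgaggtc
An ERSE on either strand was in 6 of the 17 listed genes with a sequence (35.3%), against 0.128% of 8598 genes in the table and 0.0916% of 27305 in all. The element in HSPA5 runs from 66 to 48 bases before the start.

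Replication-dependent histone genes, transcribed in S phase, had a higher median with total RNAPII than with Ser2. Relative to the median gene 12 of 21 lay above 0 with total RNAPII (median 0.10) and 7 of 21 with Ser2 (median -0.28), and 3 and 0 were 1.5-fold higher (beside 17.5% and 13.8% of all genes). The sign with Ser2 depended on the scale: relative to genes of like density the medians were 0.23 and 0.04, with 15 and 11 of 21 above, and with the silent-gene density subtracted 0.72 and 0.43, with 20 and 21 of 21 above. H1-2, a linker histone, had 41.4 RPM at 22 h and 42.6 at 19 h with total RNAPII, and 30.5 RPM at 22 h and 42.8 at 19 h with Ser2, ratios of 0.87 and 0.25. H3C2 had 0.65 and 0.11, and H2AC20 0.57 and 0.12. At the low end H2BC4 had -0.50 and -0.51 and H4C1 -0.54 and -0.39. H2BC4 was measured over a span of 9.05 kb, against a median length of 0.411 kb in the list. The highest 4 with total RNAPII included 2 linker histones, H1-2 and H1-4 (0.60 and 0.10). Most of these histone genes are short and alike, so reads may be shared between copies. The list had a median of 36.65 RPM per kb at 22 h and 61.2 at 19 h with total RNAPII, against 2.81 and 7.45 in the 1203 densest genes. Few genes are of like density there, which limits that scale for this list.

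Spliceosomal small nuclear RNA genes, listed together with RN7SK, which is not spliceosomal, also had a higher median with total RNAPII. The counts and medians of this list include RN7SK. Of 7 measured, 6 were 1.5-fold higher with total RNAPII (median 1.23) and 0 with Ser2 (median 0.38), beside 17.5% and 13.8% of all genes. Relative to genes of like density the medians were 1.19 and 0.43, with 7 of 7 above in each. The list had a median of 159 RPM per kb at 22 h and 118.5 at 19 h with total RNAPII. In the 1203 densest genes these medians were 2.81 and 7.45. Few genes are of like density there, so these distances rest on the sparse end of the curve. RNU4-2 had 24.2 RPM at 22 h and 16.1 at 19 h with total RNAPII, and 15.6 RPM at 22 h and 17.8 at 19 h with Ser2, ratios of 1.48 and 0.55. RNU4-1, the other U4 copy, had 14.6 RPM at 22 h and 15.7 at 19 h with total RNAPII, and 10.2 RPM at 22 h and 13.5 at 19 h with Ser2, ratios of 0.81 and 0.35. These genes are 116 to 141 bases long apart from RN7SK, and have near-identical copies, so the share of reads each received is uncertain.

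Immediate early genes, the first to answer growth factors, lay below the median gene. Of 27 measured, 24 were below it with each antibody, with medians of -0.25 and -0.32, and 3 with total RNAPII and 9 with Ser2 were 1.5-fold lower (beside 5.36% and 4.24% of all genes). After EGR1 came SPRY4, a feedback inhibitor of receptor signalling, with 48.4 RPM at 22 h and 137 at 19 h with total RNAPII and 29.2 RPM at 22 h and 104 at 19 h with Ser2, ratios of -0.58 and -1.07. JUN, an AP-1 subunit, had -0.11 and -0.56, and MYC -0.22 and -0.28. The highest member was EGR3 (0.35 and 0.56), another zinc finger factor of the family, at 1.22 RPM at 22 h and 2.04 at 19 h with total RNAPII. On the density-matched scale, the medians were 0.05 and -0.06, on either side of 0. With the silent-gene density subtracted they were above 0, at 0.23 and 0.11, with 19 and 16 of 27 above.

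NF-kB targets and inflammatory genes were low with both antibodies. Of 13 measured, 12 lay below the median gene with each antibody, with medians of -0.30 and -0.52, and 5 with total RNAPII and 6 with Ser2 were 1.5-fold lower (beside 5.36% and 4.24% of all genes). IL6, the cytokine, had 16.5 RPM at 22 h and 62.4 at 19 h with total RNAPII, and 19.3 RPM at 22 h and 50.2 at 19 h with Ser2, ratios of -0.98 and -0.62. PTGS2 (cyclooxygenase-2) had 39.7 RPM at 22 h and 114 at 19 h with total RNAPII, and 24.0 RPM at 22 h and 99.2 at 19 h with Ser2, ratios of -0.60 and -1.29. The NF-kB subunits RELB and NFKB2 had -0.98 and -0.79, and -0.96 and -0.76. BIRC3, an inhibitor of apoptosis, was the member above, at 0.95 and 0.35. Against genes of like density the medians were -0.16 and -0.22, with 4 and 3 of 13 above.

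Most extracellular matrix genes lay below the median gene, 25 of 34 with total RNAPII and 27 of 34 with Ser2, with medians of -0.40 and -0.33. With total RNAPII 8 and with Ser2 9 were 1.5-fold lower (beside 5.36% and 4.24% of all genes), and 5 and 4 were higher (beside 17.5% and 13.8% of all genes). MMP1, interstitial collagenase, had 32.3 RPM at 22 h and 88.8 at 19 h with total RNAPII, and 15.2 RPM at 22 h and 71.1 at 19 h with Ser2, ratios of -0.54 (95% counting interval -0.68 to -0.43) and -1.46 (-1.64 to -1.35). TIMP3, an inhibitor of such proteases, had 498 RPM at 22 h and 1605 at 19 h with total RNAPII, and 414 RPM at 22 h and 1406 at 19 h with Ser2, ratios of -0.78 and -1.03. COL4A1, a basement membrane collagen, had -0.89 and -0.76, and LUM (lumican) -0.93 and -0.56. COL1A2, a type I collagen chain, was less low, with 219 RPM at 22 h and 497 at 19 h with total RNAPII and 226 RPM at 22 h and 476 at 19 h with Ser2, ratios of -0.27 and -0.34. HAS2 (hyaluronan synthase 2) had 0.27 with total RNAPII and -0.33 with Ser2. FBLN2 (2.18 and 1.82) and COL8A1 (2.17 and 1.27) were high and thinly covered, FBLN2 with 18.7 RPM at 22 h and 7.44 at 19 h over 89.3 kb with total RNAPII. Against genes of like density FBLN2 lay at 0.03 and 0.32, and COL8A1 stayed higher with total RNAPII, at 0.74 and 0.34. Set against genes of like density, the list was near 0 (-0.04 with each antibody).

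Actin and contractile genes, driven by SRF in fibroblasts, were the functional list with the lowest medians with both antibodies. Of 24 measured, 22 lay below the median gene with each antibody, with medians of -0.50 and -0.55, and 7 with total RNAPII and 12 with Ser2 were 1.5-fold lower (beside 5.36% and 4.24% of all genes). TAGLN (transgelin) had 13.5 RPM at 22 h and 46.7 at 19 h with total RNAPII, and 9.18 RPM at 22 h and 33.5 at 19 h with Ser2, ratios of -0.84 and -1.08. CALD1 (caldesmon) had 344 RPM at 22 h and 1080 at 19 h with total RNAPII, and 318 RPM at 22 h and 989 at 19 h with Ser2, ratios of -0.74 and -0.90. PDLIM5, an actin-binding LIM protein, had -0.54 and -0.91. The 2 members above the median gene were LMOD1 (leiomodin, 0.23 and 0.17) and CNN1 (calponin, 0.29 and 0.24). On the density-matched scale, 18 of 24 lay below with total RNAPII and 22 of 24 with Ser2, medians of -0.13 and -0.19. With the silent-gene density subtracted the medians were nearer the median gene, at -0.05 and -0.07. On that scale 11 and 8 of 24 lay above, and 0 were 1.5-fold lower with either antibody.

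Cytosolic ribosomal protein genes were uniform: 66 of 66 lay below the median gene with both antibodies, with medians of -0.40 and -0.44, and 10 were 1.5-fold lower with each (beside 5.36% and 4.24% of all genes). Against genes of like density they were at 0.01 and -0.05, with 33 and 24 of 66 above. With the silent-gene density subtracted their medians were above 0, at 0.09 and 0.13, with 46 and 51 of 66 above. Cholesterol synthesis genes lay above the median gene (0.22 and 0.13, 13 and 14 of 20 above), led by HSD17B7 at 1.02 and 0.85, and near genes of like density (-0.02 with each antibody). ATF4 and amino acid stress genes had medians of -0.23 and -0.11 over 19 genes, and -0.12 and 0.09 relative to genes of like density, with PSAT1 (serine synthesis) at 0.90 and 0.95 and SHMT2 at -0.78 and -0.33. The p53 targets had -0.16 and -0.08 over 24 genes, and -0.02 and -0.06 relative to genes of like density. CDKN1A (the CDK inhibitor p21) had 29.5 RPM at 22 h and 75.9 at 19 h with total RNAPII, and 19.4 RPM at 22 h and 54.7 at 19 h with Ser2, ratios of -0.44 and -0.74, while SESN1 had 0.95 and 0.87.

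The remaining lists had medians below the median gene with both antibodies. DNA damage checkpoint and repair genes had -0.06 and -0.10 over 33 genes, and -0.08 and -0.08 on the density-matched scale, with the kinase ATR at 0.51 and 0.20 and its effector kinase CHEK1 at -0.20 and -0.43. RNAPII subunits and elongation factors had -0.20 and -0.19, with 10 and 5 of 35 above and 3 of them 1.5-fold lower with each antibody (beside 5.36% and 4.24% of all genes), and -0.01 and -0.01 on the density-matched scale. POLR2A, which encodes the subunit carrying the C-terminal repeats, had 53.9 RPM at 22 h and 92.7 at 19 h with total RNAPII, and 39.8 RPM at 22 h and 75.1 at 19 h with Ser2, ratios of 0.13 and -0.17. ELL2, an elongation factor, had -0.54 and -0.71. Heat shock genes had -0.16 and -0.03 over 17 genes, and -0.0080 and 0.07 on the density-matched scale. Glycolysis genes had -0.23 and -0.12, with 4 and 8 of 20 above, and 0.0010 and -0.0056 on the density-matched scale.

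Genes were also ordered by the difference between the antibodies. Among genes with a mean of 3 RPM over the 4 libraries, TIMM10B, a mitochondrial import chaperone, had the largest Ser2 ratio over its total ratio. It had 2.98 RPM at 22 h and 11.9 at 19 h with total RNAPII, and 3.79 RPM at 22 h and 5.63 at 19 h with Ser2, ratios of -0.92 (95% counting interval -1.52 to -0.68) and 0.22 (-0.19 to 0.51). DDIT4, a stress inhibitor of mTORC1, followed with -0.86 and 0.12, then GAMT (-0.57 and 0.39), HLA-C (-0.86 and 0.10) and RGS11 (-0.42 and 0.50). All 5 are short, 2.12 to 7.68 kb, with 30 to 56 total RNAPII reads at 22 h and 192 to 426 at 19 h. At the other end PPP1R9A, an actin-binding phosphatase regulator, had 103 RPM at 22 h and 18.8 at 19 h with total RNAPII, and 110 RPM at 22 h and 48.2 at 19 h with Ser2, ratios of 3.33 and 1.92. CXXC4, ANK2, NPAS3 and PDE4D followed, all thinly covered at 19 h. Set against genes of like density, the correlation of the antibodies across genes was 0.71, with the same sign in 67.4%.

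**Figure D4:**
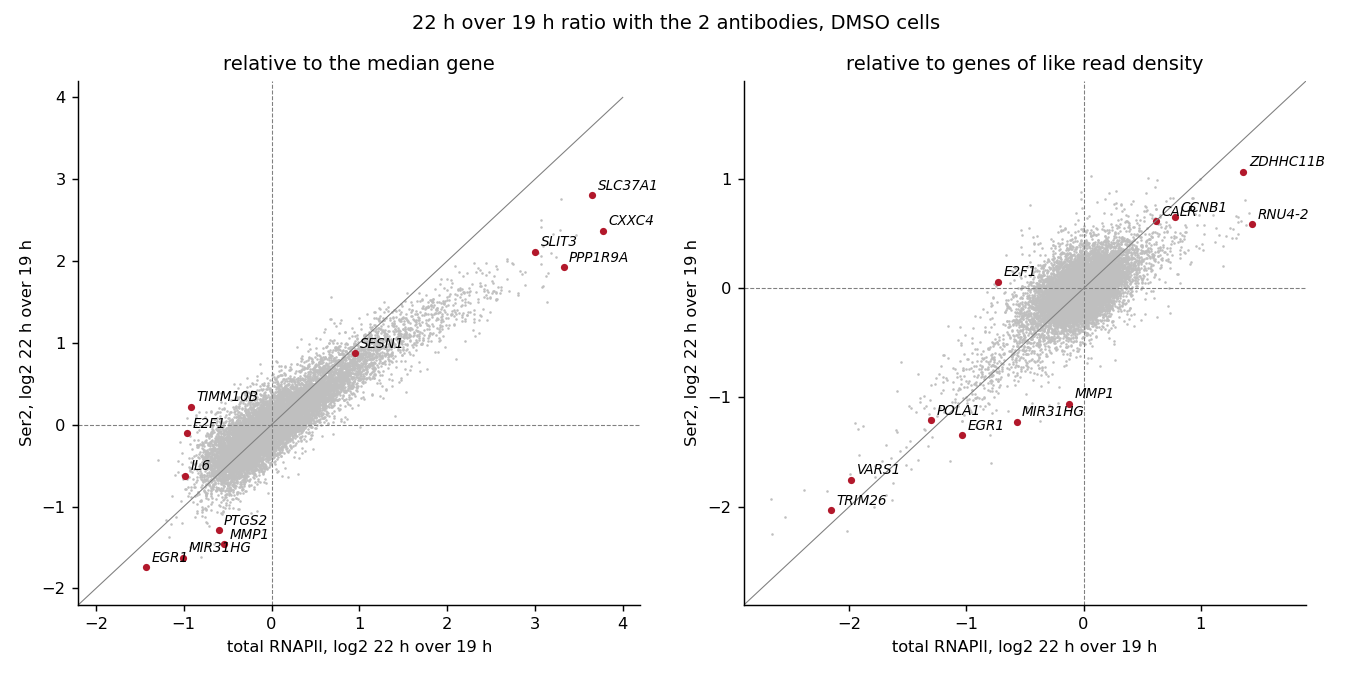
Log2 ratio of 22 h over 19 h with total RNAPII (x axis) against Ser2 (y axis), each point 1 gene, relative to the median gene (left) and to genes of like read density (right), with the diagonal as a line. Genes with high ratios lie below the diagonal on the left (PPP1R9A at 3.33 and 1.92), EGR1, MIR31HG and MMP1 are lower with Ser2, and E2F1 and TIMM10B are lower with total RNAPII.

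Genes farthest below genes of like density with both antibodies clustered by position, a pattern seen only after the values were known. Of 279 such genes (1.5-fold or more), 141 lie on chromosome X, where they are 41.3% of 341 genes measured, and 39 lie at positions 28903002 to 33457541 of hg38 chromosome 6, the region of the major histocompatibility complex, where they are 69.6% of 56. On chromosome Y they are 9 of 13 genes (69.2%). Among all 11576 other genes they were 90 (0.777%). These 90 were not spread evenly: they included 9 of 61 genes at 50000001 to 55000000 of chromosome 19 and 4 of 8 at 25000001 to 30000000 of chromosome 15. TRIM26, in the chromosome 6 window, had 2.82 RPM at 22 h and 6.05 at 19 h with total RNAPII, and 2.46 RPM at 22 h and 5.23 at 19 h with Ser2, which is -0.07 and -0.22 relative to the median gene and -2.16 and -2.03 against genes of like density. Median density in that window was 0.197 RPM per kb at 22 h and 0.567 at 19 h with total RNAPII, against 0.610 at 22 h and 1.18 at 19 h in those other genes. Relative to the median gene the window lay at -0.44 and -0.25 and chromosome X at -0.07 and -0.02. MDC1 of the window was at -1.78 and -1.63 against genes of like density, but at -0.09 and 0.03 relative to the median gene. VARS1 was at -1.98 and -1.75 against genes of like density, and at -0.61 and -0.39 relative to the median gene. POLA1 is among the chromosome X genes that passed the threshold, and KIF4A is not.

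The endothelial markers were near the silent genes in density with total RNAPII. VWF (von Willebrand factor) and TEK (the receptor TIE2), both endothelial, had a median of 0.271 RPM per kb at 22 h and 0.0955 at 19 h with total RNAPII, next to 0.258 at 22 h and 0.0895 at 19 h in the silent genes. VWF had 49.0 RPM at 22 h and 15.2 at 19 h with total RNAPII, and 50.5 RPM at 22 h and 28.8 at 19 h with Ser2, ratios of 2.56 and 1.53. With Ser2 the pair had a median of 0.289 RPM per kb at 22 h and 0.182 at 19 h, against 0.279 at 22 h and 0.148 at 19 h in the silent genes. Beside the fibroblast markers, whose medians were -0.28 and -0.34, the epithelial keratins KRT8 and KRT18 were the measured keratinocyte list members, and MITF was the melanocyte one.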

How the data were processed

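RNAPII ChIP-seq was analysed from one deposited table of 12425 genes by 14 libraries. The authors' values are in RPM, reads over each gene scaled to the library total, per the file headers. The submitters' processing notes name Bowtie2 2.3.3.1, SAMtools 1.4 and hg38. Whole reads were recovered from the RPM steps (100% of values whole within 0.01 reads), which gave library totals. Symbols were assigned by position to RefSeq genes for 10734 of 12411 nuclear genes (86.4%), and 2013 genes share over 20% of their span with another. Ratios were log2((RPM at 22 h + 0.5) / (RPM at 19 h + 0.5)) minus the median over genes with a mean of 1 RPM, called at 1.5-fold. The density trend was a lowess curve (span 0.3) on log2 RPM per kb. A count of 3 reads, the most that a count of 0 allows, is 0.160 and 0.0836 RPM for total RNAPII at 22 h and 19 h, and 0.0973 and 0.0994 for Ser2. With 1 library per group no p-value is given for any gene, and 95% intervals cover counting error only.

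Named genes were the 10 highest and 10 lowest by the smaller of both ratios with a mean of 3 RPM over the 4 libraries, the 5 highest and 5 lowest by Ser2 minus total, the ends of each list, and a fixed set of well-known genes, of which FOS was not matched. Other genes named were chosen after their values were seen: these are CCNF, KIF4A, POLA1, PCNA, CALR, H1-4, TRIM26, MDC1 and VARS1. Members, the 18 functional and 4 marker lists and the motifs were chosen with earlier results of these data known. Ratios were tested on simulated reads with known fold changes and the same scaling for all other genes. The simulation held no dependence on density, so it cannot speak to calls made under the dependence seen here. Alternatives were other pseudocounts, filters, scalings, background subtractions and call thresholds, and edgeR 4.0.16 in R 4.3.3 on the recovered reads. Other tools were Python 3.11.15, pandas 2.3.3, numpy 2.4.6, scipy 1.17.1 and statsmodels 0.14.6.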

Additional observations from a re-analysis of the deposited data

Results flagged for a closer look

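Some genes lay on opposite sides of the median gene with DMSO and with ATRi when 22 h was set over 19 h, by more than 0.25 on the log2 scale on each side. These differences were not tested, since each hour and treatment has 1 library. They are on the scale relative to the median gene, which moves with read density. For total RNAPII at 22 h the silent genes had 0.258 RPM per kb with DMSO and 0.175 with ATRi. Whether that bears on these signs was not tested. LUM had -0.927 with DMSO and 0.255 with ATRi in total RNAPII. COL1A2 had -0.272 with DMSO and 0.49 with ATRi in total RNAPII. AURKB had -0.304 with DMSO and 0.259 with ATRi in total RNAPII, but lay above 0 with DMSO against genes of like density, as given above. HAS2 had -0.334 with DMSO and 0.354 with ATRi in Ser2.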

How the results depend on the processing

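Counts of genes 1.5-fold from the median gene, and the number of lists above it with both antibodies, were within 1.5 times their values with a pseudocount of 0.1 or 2 RPM, with no filter or one at 5 RPM, and without overlapping genes. Other settings moved some counts. With no centring 414 genes were higher and 8554 lower with total RNAPII, 249 and 7554 with Ser2, 227 and 7261 with both, and 0 lists lay above. TMM scaling gave 1110 lower with total RNAPII and 305 with both. Relative to genes of like density 171 were higher and 407 lower with total RNAPII, 90 higher with Ser2 and 36 with both. Subtracting the 5th percentile of density gave 1376 higher with total RNAPII, 771 lower with Ser2, and 888 higher and 427 lower with both. A 2-fold threshold gave 979 higher and 18 lower with total RNAPII, 608 and 42 with Ser2, and 574 and 7 with both. Subtracting the silent-gene density, chosen after seeing the data, gave 711 higher and 1089 lower with total RNAPII, 801 and 1016 with Ser2, and 354 and 639 with both. The edgeR quasi-likelihood test with antibody as a term, also added after seeing the data, called 3250 of 12017 genes higher and 3429 lower at an adjusted p of 0.05. Its spread is between antibodies and not between cultures. The antibodies are not replicates of an hour, so these counts are not a test of the hours. The causes of these moves were not tested.

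Signs turned for some values. With no centring, total RNAPII gave -0.30 for AURKA, -0.030 for KIF18A, -0.17 for CENPE, -0.26 for H3C2, -0.040 for H1-2, -0.31 for H1-4, -0.095 for RNU4-1, -0.19 for PDIA6, -0.11 for ATF6, -0.27 for RFC3 and -0.003442 for PSAT1. Ser2 gave -0.00755 for AURKA, -0.0365 for CDCA7 and -0.087 for the median of the very long genes. Relative to genes of like density PSAT1 had -0.14 and MITF -0.009726 with total RNAPII, and CDCA7 had -0.071 with Ser2. With the silent-gene density subtracted PSAT1 had -0.13 and MITF -1.65 with total RNAPII, and with Ser2 MITF had -0.47, TEK -0.25 and the median of the very long genes -0.026. Of 38 list medians, 10 changed sign relative to genes of like density and 13 with the silent-gene density subtracted. No paired analysis was possible because the labels carry no replicate numbers and each group holds 1 library, so no library could be left out either. Depth limits short and thinly covered genes most: the median gene had 372 reads at 22 h and 1276 at 19 h with total RNAPII.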
